A study of Mus musculus with 2 samples.

Results

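The enzymes described here are 9 genes of thymidylate synthesis and 5-fluorouracil (5-FU) metabolism, taken from a fixed list of names: Tyms, Dut, Tk1, Rrm1, Rrm2, Umps, Upp1, Tymp and Dpyd. The rule used no measured value, though the list was chosen with earlier results of these data known. They were matched by 11 probes, of 27235 probes that could be named for 20660 genes. Transcript levels were measured in pre CFU-E, early erythroid progenitors of the bone marrow, from C57BL/6 mice that were wild type (WT) or lacked ESAM, an adhesion molecule of endothelial cells and hematopoietic stem cells (ESAM-KO). Mice of both genotypes were 8 to 12 weeks old and had received a single dose of 120 mg/kg of 5-FU 8 days before the cells were taken, so the WT cells are a treated control and no untreated cells are part of the comparison. Cells that were c-Kit+ Sca1- CD150+ endoglin+ and Lin-, with low CD41 and low or no FCgRII/III, were sorted from marrow pooled from 3 mice per genotype. No promoter or Cre that would limit the loss of ESAM to these cells is named. The study describes ESAM as also missing from environmental cells of ESAM-KO transplant recipients. Each genotype was measured on 1 array, so there is no spread between replicates and no test of genotype.

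Thymidylate synthase makes dTMP from dUMP with a folate as the carbon donor, and is the only route by which cells make thymidylate anew. 5-FU is converted in the cell to fluorinated nucleotides: one of them, FdUMP, blocks thymidylate synthase, and others enter RNA and DNA. In marrow the drug kills dividing progenitors, and the survivors then divide to refill the blood lineages, a phase in which deoxynucleotides are in demand.

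Among the 8 enzymes that gave a ratio, 1 was higher in ESAM-KO cells by over 2-fold, none was lower by over 2-fold and 7 lay within 2-fold. The one past 2-fold was Tyms, and Rrm2 and Dut followed it. Umps, Rrm1, Upp1, Tk1 and Tymp had log2 ratios between -0.11 and 0.22, and Dpyd was not measured above background on either array. The share of members higher by over 2-fold was 12.5%, beside 6.99% of the 14136 named genes with a ratio, and 8.43% of those genes were lower by over 2-fold, which makes 15.4% past 2-fold in either direction. A count of 1 gene in 8 is close to these backgrounds, which depend on signal. Among genes above background on both arrays, 7.93% were higher by over 2-fold in signal quartile 2. The share was 3.84% in quartile 3 and 0.79% in quartile 4, the brightest. Of the members, 2 lay in quartile 2, Tyms among them, 2 in quartile 3 and 4 in quartile 4. The median log2 ratio of the members was 0.22, and that of all genes was 0.00.

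A log2 ratio here is the log2 spot intensity on the ESAM-KO array minus that on the WT array, each first set relative to the 75th percentile of its own array. That percentile was 201.4 for WT and 251.1 for ESAM-KO, so scaling lowered every log2 ratio by 0.32, and intensities quoted below are unscaled. The error given with an intensity is the scanner software's own estimate for the spot, and the error of a ratio combines both arrays. It covers neither the pooling of the mice, nor the sort, nor the amplification of 20 ng of RNA. Well above background means that the scanner software set its flag of that name for the spot. All 11 probes were printed as 1 spot each. For 213 other probes printed at least 8 times and above background, the SD of the log2 ratio between spots had a median of 0.11 and a 90th percentile of 0.27. Between the 2 brightest probes of a gene, the log2 ratios differed by a median of 0.41 and a 90th percentile of 1.48.

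The labels were checked on the arrays. Esam read 27.4 in WT and 20.6 in ESAM-KO cells, a log2 ratio of -0.73 with an error of 0.31, and the files do not show whether its probe lies in the deleted part. Kit (3414 and 3326), Gata1 (5959 and 5889), Klf1 (1149 and 1147) and Epor (1175 and 1371), which mark early erythroid progenitors, were well above background on both arrays, with log2 ratios of -0.36, -0.34, -0.32 and -0.10. Of the other genes of the sort, Eng (endoglin) read 375 and 269, a log2 ratio of -0.80 with an error of 0.21, and Itga2b (CD41) read 35.8 and 29.7, a log2 ratio of -0.59. Slamf1 (CD150) read 17.8 and 23.0, near the lowest signals well above background. Ly6a, which encodes the Sca1 that the sort selected against, read 61.1 in WT and was not well above background in ESAM-KO cells. The 8 housekeeping genes had a median log2 ratio of 0.00 (-0.13 to 0.32 under other processing). Single genes of that list ran from Eef1a1 at -0.37 to Hprt at 0.77, and Hprt lay above every member but Tyms.

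The start regions of 3 members are shown, those of Tyms, which had the highest ratio, and of both subunits of ribonucleotide reductase, whose ratios differed from each other. Each is the 250 bases before the annotated start on RefSeq assembly GRCm38.p6, read 5′ to 3′ on the strand of the gene: chr5:30073626-30073875 on the minus strand for Tyms, chr7:102441445-102441694 on the plus strand for Rrm1 and chr12:24708004-24708253 on the plus strand for Rrm2. Capitals mark CCAAT.
Tyms: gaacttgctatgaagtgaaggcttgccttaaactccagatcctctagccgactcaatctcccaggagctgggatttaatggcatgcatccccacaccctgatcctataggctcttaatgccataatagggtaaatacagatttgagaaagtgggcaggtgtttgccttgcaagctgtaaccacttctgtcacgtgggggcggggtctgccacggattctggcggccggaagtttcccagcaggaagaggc
Rrm1: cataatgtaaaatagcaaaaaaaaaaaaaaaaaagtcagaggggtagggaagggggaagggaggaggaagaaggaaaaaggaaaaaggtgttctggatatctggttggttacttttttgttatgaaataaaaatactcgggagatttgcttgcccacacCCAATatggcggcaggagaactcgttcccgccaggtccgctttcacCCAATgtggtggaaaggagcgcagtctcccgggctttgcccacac
Rrm2: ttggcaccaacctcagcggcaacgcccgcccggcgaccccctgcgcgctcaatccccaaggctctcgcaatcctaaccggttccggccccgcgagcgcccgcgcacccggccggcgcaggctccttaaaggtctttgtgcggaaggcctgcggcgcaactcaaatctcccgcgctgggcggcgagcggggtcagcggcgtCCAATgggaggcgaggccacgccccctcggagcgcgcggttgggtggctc

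Letters of 3 kinds were searched on both strands of these windows, namely CCAAT and TATAAA and the E2F-type octamers, which are TTTCCCGC and TTTCGCGC as well as TTTGCCGC and TTTGGCGC. None of these letters occurred in the window of Tyms, which was 52% G and C. The window of Rrm1 was 46% G and C and held CCAAT at 91 and at 45 bases before the start. That of Rrm2 was 72.4% G and C and held CCAAT at 50 bases before it. Over the 11 start windows listed for the 9 members, CCAAT occurred in 3, TATAAA in 1 and an E2F-type octamer in 0. Of 32851 windows of the same length over all genes, 33.8% held CCAAT, 12.4% TATAAA and 1.86% an E2F-type octamer. A match is a description of letters only, and no binding was measured.

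Tyms (NM_021288), the gene of thymidylate synthase, the enzyme that FdUMP inhibits, had an intensity of 46.8 ± 5.70 in WT and 154 ± 15.7 in ESAM-KO cells. After scaling it was 2.64-fold higher in ESAM-KO cells, a log2 ratio of 1.40 with a scanner error of 0.23. Of all genes with a ratio, 3.16% had one at or above it, and among genes of similar signal, those in signal quartile 2 of the detected genes, the share was 3.11%. The signal on the WT array was low, with 12.6 the lowest intensity well above background there. With normexp background correction and quantile normalization the log2 ratio was 0.81 and no longer past 2-fold. The gene had 1 named probe. Of 109 other genes with at least 2 probes that were higher by over 2-fold at the brightest, the other probe was also higher by over 2-fold in 22 (20.2%) and was higher at all in 70. The RefSeq table also lists a pseudogene, Tyms-ps, and the files do not show whether the probe could bind its RNA.

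**Figure D1:**
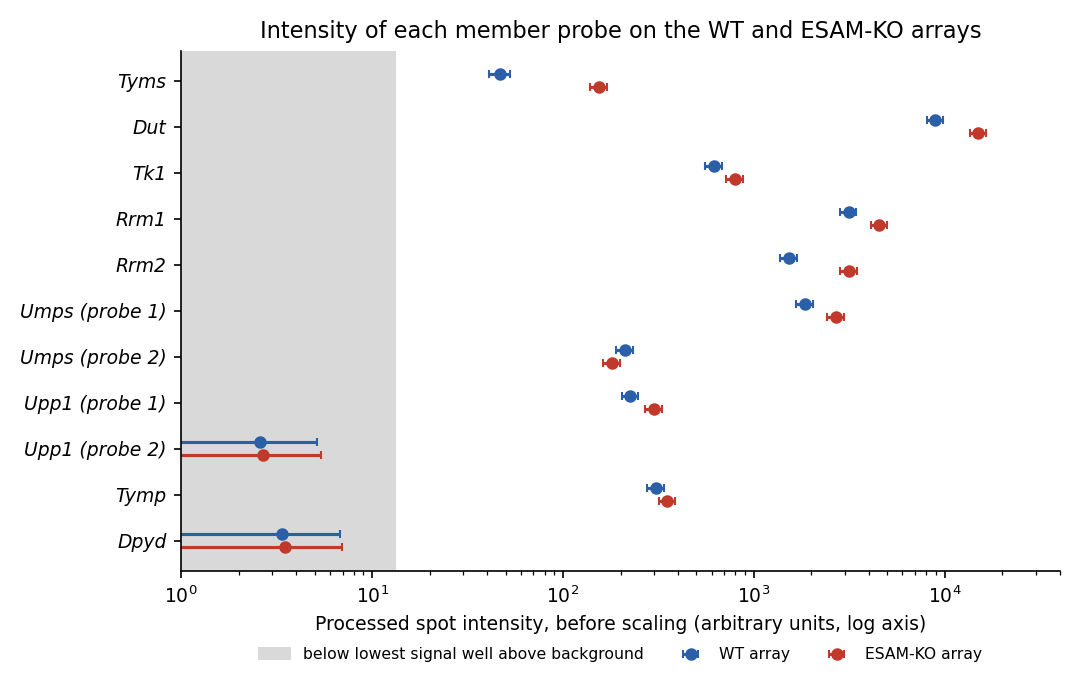
Unscaled spot intensity of each of the 11 probes on a log axis, WT array in blue and ESAM-KO array in red, with the scanner software's error as bars. The shaded zone ends at 13.2, the lowest ESAM-KO intensity well above background. The points of Tyms, at 46.8 and 154, lie farthest apart, while Dpyd and the second probe of Upp1 lie inside the zone on both arrays.

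Dut (NM_023595) encodes dUTPase, which splits dUTP to dUMP, the substrate of thymidylate synthase, and so keeps uracil and fluorouracil out of DNA. Its probe read 8923 ± 892 for WT and 14970.4 ± 1497 for ESAM-KO. The log2 ratio was 0.43, larger than its error of 0.20, and 21.9% of all genes had a ratio at or above it. Tk1 (NM_009387), the cytosolic thymidine kinase that salvages thymidine and phosphorylates fluorodeoxyuridine, read 618 ± 61.9 and 792 ± 79.3. Its log2 ratio of 0.04 was smaller than its error, and it was -0.09 when the arrays were scaled to their medians. Tk1 overlaps Afmid in the annotation, and the labelling starts from double-stranded cDNA, so signal from the shared stretch cannot be assigned to one gene.

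Ribonucleotide reductase makes the deoxynucleotides, and turns FUDP into FdUDP, with a large subunit (Rrm1) and a small subunit that is made in S phase (Rrm2). Rrm1 (NM_009103) read 3131 ± 313 in WT and 4533 ± 453 in ESAM-KO cells, a log2 ratio of 0.22 against an error of 0.20. Rrm2 (NM_009104) read 1527 ± 153 and 3152 ± 315, and its log2 ratio of 0.73 was the next highest of the members after Tyms. Of all genes, 11.7% had a ratio at or above that of Rrm2, and of genes in signal quartile 4, the brightest, 3.23% did. Without scaling the log2 ratio of Rrm2 was 1.05, past 2-fold. The 5 enzymes of deoxynucleotide supply, Tyms, Dut, Tk1, Rrm1 and Rrm2, had log2 ratios from 0.04 to 1.40 with a median of 0.43.

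Differences between members within the same arrays do not depend on the scaling factor. The log2 ratio of Tyms was above that of Tk1 by 1.36 (error 0.31), above that of Rrm1 by 1.18 (error 0.31) and above that of Rrm2 by 0.67 (error 0.31). Rrm2 was above Rrm1 by 0.51 (error 0.29). Dut was above Rrm1 by 0.21, less than the error of 0.29. With normexp and quantile normalization Tyms, at 0.81, and Rrm2, at 0.69, were closer than that error, while Tk1 was at 0.08 and Rrm1 at 0.19.

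**Figure D2:**
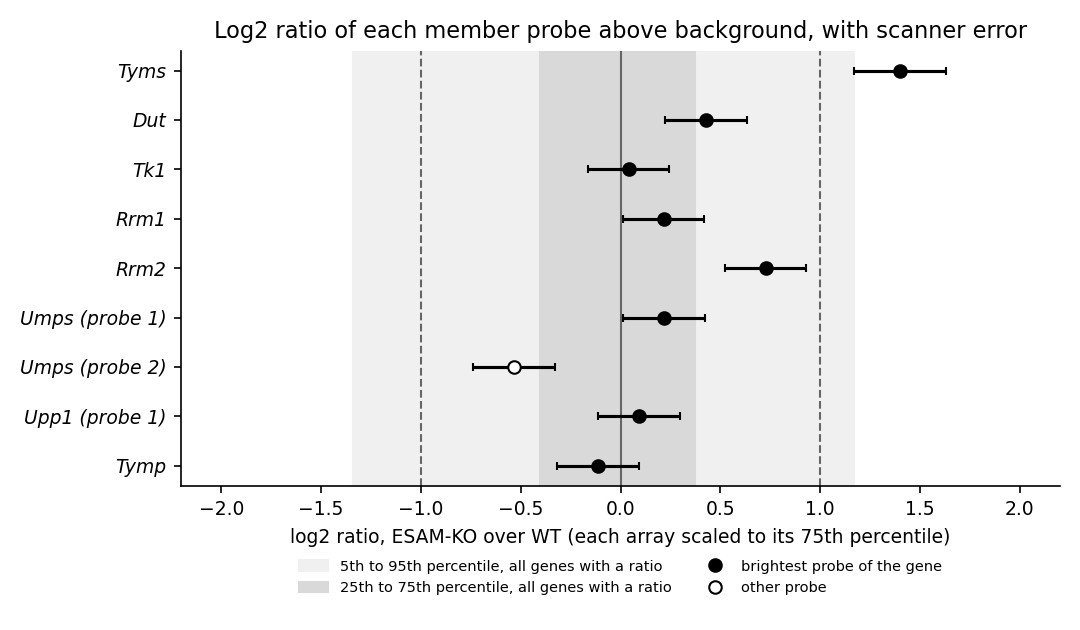
Log2 ratio of ESAM-KO over WT for the probes above background, scaled to the 75th percentile of each array, with the scanner error as bars. Filled points are the brightest probe of each gene and the open point is the other probe of Umps. The shaded zones span the 5th to 95th percentile (-1.34 to 1.17) and the 25th to 75th percentile (-0.40 to 0.37) of all genes with a ratio, and the dashed lines mark 2-fold. Tyms at 1.40 is the one point beyond both the dashed line and the outer zone.

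Umps, Upp1 and Tymp, which act on 5-FU itself, had log2 ratios from -0.11 to 0.22 at their brightest probes. Umps (NM_009471) encodes UMP synthase, which adds phosphoribose to orotate and also to 5-FU itself. The brighter of its probes read 1849.8 ± 185 for WT and 2684 ± 268 for ESAM-KO cells, a log2 ratio of 0.22 with an error of 0.20. The other probe read 210.0 ± 21.2 and 181 ± 18.3, a log2 ratio of -0.53, so the probes of Umps pointed in opposite directions and their mean was -0.16. They differed by 0.75, a gap wider than in 70.3% of the 3056 genes with at least 2 probes above background, where the median gap was 0.41. The direction of Umps is therefore not settled by these arrays.

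Upp1 (NM_009477), uridine phosphorylase, which joins 5-FU to ribose, read 225 ± 22.7 and 299 ± 30.1 at its brighter probe. The log2 ratio was 0.09, smaller than its error, and -0.04 with median scaling. Its other probe read 2.57 ± 2.58 and 2.69 ± 2.69 and did not stand well above background on any array. Tymp (NM_138302), thymidine phosphorylase, which joins 5-FU to deoxyribose, read 306 ± 30.7 in WT and 352 ± 35.4 in ESAM-KO cells. It was the one member below 0 after scaling, with a log2 ratio of -0.11 that was smaller than its error and became 0.20 without scaling. Tymp overlaps Ncaph2 and Sco2 in the annotation. Umps, Upp1 and Tymp together had a median log2 ratio of 0.09.

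Dpyd (NM_170778) encodes dihydropyrimidine dehydrogenase, the first enzyme of pyrimidine breakdown, which in the liver removes most of a dose of 5-FU. Its probe read 3.37 ± 3.39 for WT and 3.47 ± 3.49 for ESAM-KO, no more than the error on either array. It was not well above background, so no ratio is given, and a difference in Dpyd was not detectable here.

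Further genes of the same pathways, 39 in 6 lists, gave 36 ratios. Of these, 3 (8.33%) were higher by over 2-fold, 4 (11.1%) were lower by over 2-fold, and the median log2 ratio was 0.30. In de novo pyrimidine synthesis, upstream of Umps, Dhodh, the mitochondrial dihydroorotate dehydrogenase, read 162 and 535, a log2 ratio of 1.40, and Cad, which carries the first steps, had 0.49. The 9 genes of the folate cycle that feeds thymidylate synthase all lay within 2-fold, with a median of 0.36. They ran from Shmt2, a mitochondrial serine hydroxymethyltransferase, at -0.08 to Ggh, which trims folate polyglutamates and was at least 1.77-fold higher since its WT signal was not well above background.

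Among 8 further genes of deoxynucleotide supply the median was 0.37. Dguok, the mitochondrial deoxyguanosine kinase, read 168 and 477, a log2 ratio of 1.19, while Tk2, the mitochondrial thymidine kinase, read 47.4 in WT and was not well above background in ESAM-KO cells, at least 4.49-fold lower. Among 10 further genes of 5-FU activation and uridine salvage, 9 had a ratio, with a median of 0.26. Uckl1, a uridine-cytidine kinase-like gene, was lower at a log2 ratio of -1.45 (144 and 66.0), as was Ctps2, a CTP synthase, at -1.14 (1475 and 834). Of 6 further genes of pyrimidine breakdown, Dpys and Upb1, which act after Dpyd, were not well above background on either array. Nt5m, a mitochondrial deoxynucleotidase, had a log2 ratio of -1.50 (202 and 89.0), and the median of the 4 ratios was -0.28, or 0.04 without scaling. Among 4 glycosylase genes that remove uracil or its analogues from DNA, Tdg was higher at 1.11 (255 and 683), Mbd4 was lowest at -0.47, and the median was 0.09, or -0.04 with median scaling.

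Several members are made mostly in dividing cells, so genes of the cell cycle are given beside them. Of 22 S phase genes, 21 had a ratio, 1 was higher by over 2-fold and none was lower by over 2-fold, with 12 above 0 and 9 below. Their median log2 ratio was 0.05, ranging from -0.08 to 0.37 under other processing. Ccne1, the cyclin that acts at entry into S phase, had the highest ratio at 1.57 (114 and 423), and Uhrf1, a factor of DNA methylation maintenance, the lowest at -0.33. All 12 genes of G2 and mitosis lay within 2-fold, from Aurkb at -0.19 to Ccnb1 at 0.72, with a median of 0.19. Tyms, Rrm2 and Dut had ratios above the median of either list, while Tk1 lay near that of the S phase genes. Rrm1 and the brighter probe of Umps, both at 0.22, were above either median by less than their scanner error of 0.20. The other probe of Umps, at -0.53, was below both. Single genes of the lists reached as high, since Ccne1 lay above Tyms at 1.40 and Ccnb1 lay near Rrm2 at 0.73. Whether the cells differed in cell cycle was not tested.

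Most neutrophil and erythroid markers were lower in ESAM-KO cells. Of 11 neutrophil markers 10 were lower by over 2-fold in ESAM-KO cells, with a median log2 ratio of -3.30, and Csf3r, which was within 2-fold, was at 0.28. The summed intensity of the whole list was 100473 in WT and 84686 in ESAM-KO cells, and without Csf3r, left out after its value was seen, 50329 and 8988. Of 12 erythroid markers 7 were lower by over 2-fold (median -1.57). Summed over the list, macrophage and monocyte intensity was 83135 and 89509 unscaled, and 413 and 356 times the 75th percentile of the array when scaled, with the Itgam probe at 76376 and 82076 unscaled. Of 10 macrophage and monocyte markers 6 had a ratio, with a median of -0.18 (0.16 without scaling), and 1, Vcam1, was lower by over 2-fold. For bulk RNA, fewer cells of a type and less RNA per cell cannot be told apart. The part of these markers in the ratios of the members, Tymp and Upp1 included, was not tested.

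**Figure D3:**
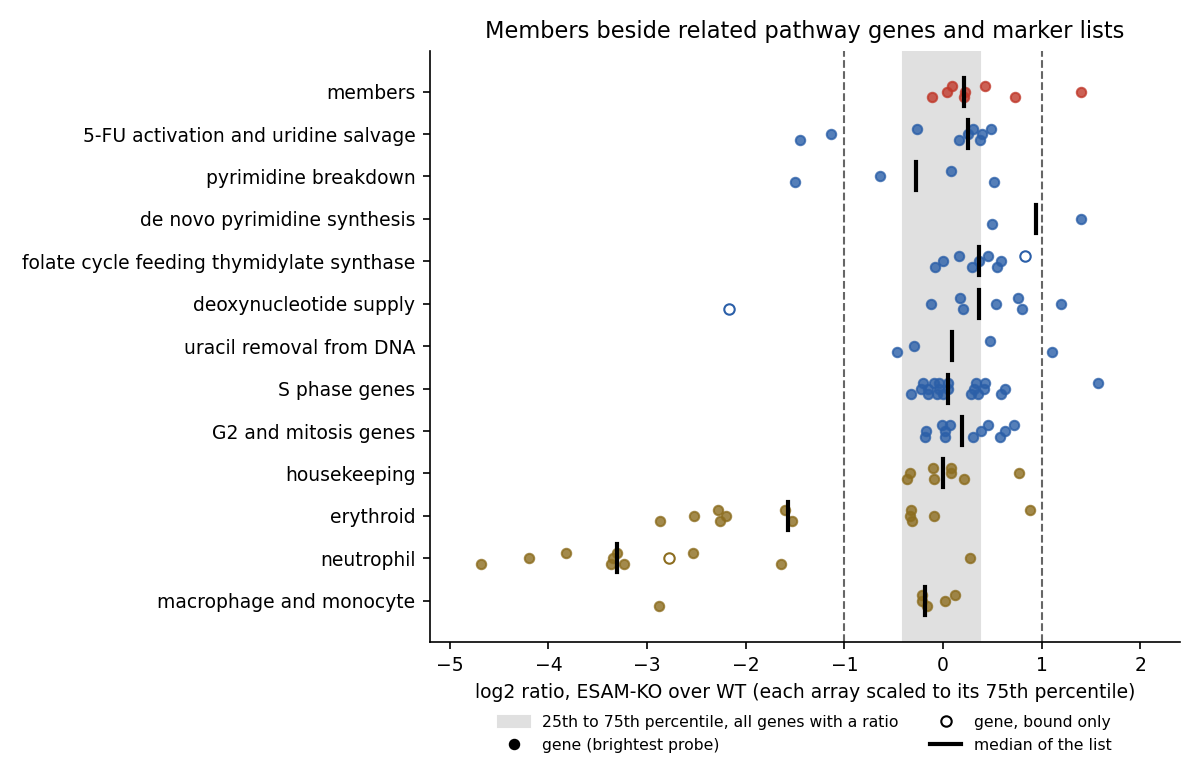
Log2 ratio of ESAM-KO over WT for the members (red), the lists of related pathway and cell cycle genes (blue) and the marker lists (brown), 1 point per gene by its brightest probe. Open points are bounds, black bars are list medians, the shaded zone is the 25th to 75th percentile of all genes with a ratio and the dashed lines mark 2-fold. The members center on 0.22 and the folate genes on 0.36, while the neutrophil markers center on -3.30 and the erythroid markers on -1.57.

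Across the 11 other ways of processing the ratios, Tyms had the highest ratio, then Rrm2, then Dut in each case. Most of these ways could not change the order of Tyms, Rrm2 and Dut. A scaling factor shifts their ratios alike, and the outlier, filter and probe rules left their values unchanged. Only quantile normalization, normexp and the authors' rounded table could reorder them. Tyms ranged from 0.81 to 1.72, Rrm2 from 0.60 to 1.05 and Dut from 0.30 to 0.75. Rrm1 ranged from 0.09 to 0.53 and Tk1 from -0.09 to 0.36. Umps, from -0.53 to 0.54, had the widest range, and its low end is its other probe. With the arrays unscaled all 8 members were above 0, and with median scaling 5 were above and 3 below. The gap between the median of the members and that of all genes was 0.22 under these 2 and the reported scaling. A scaling factor shifts both medians almost alike, so this gap could hardly change between them. It was 0.15 with the mean of the probes of a gene, 0.14 with the dimmest probe and 0.35 without the filter on dim probes.

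**Figure D4:**
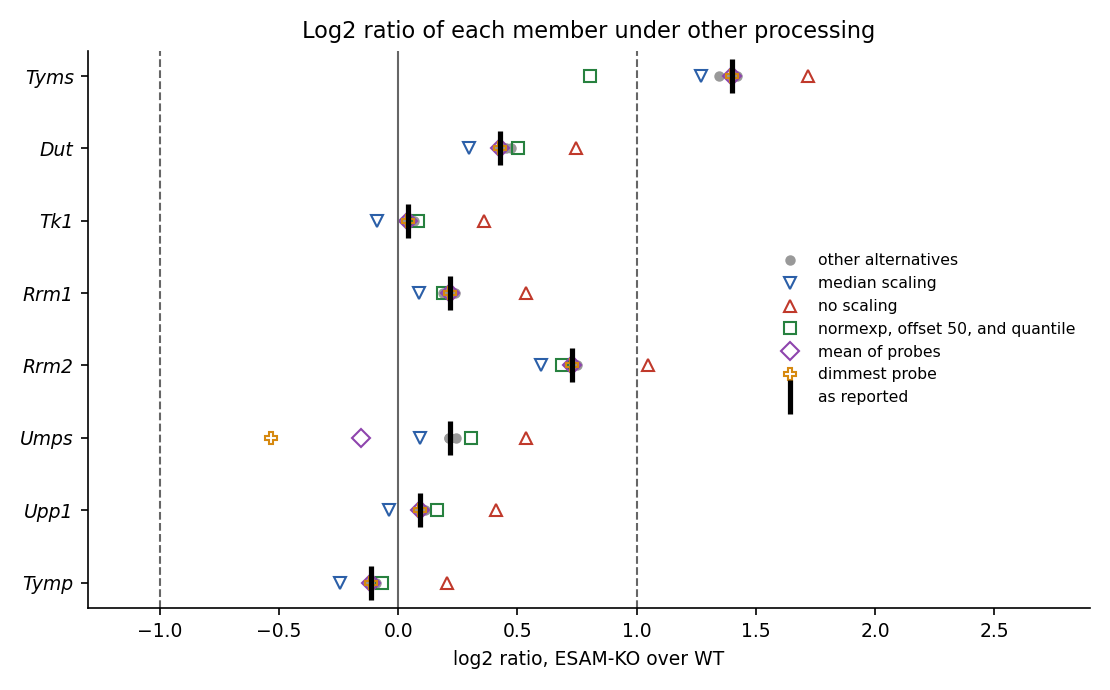
Log2 ratio of each member as reported (black bar) and under the other ways of processing (symbols), with dashed lines at 2-fold. Tyms lies beyond the line at 1.40 but at 0.81 with normexp and quantile normalization, Rrm2 passes it at 1.05 without scaling, and Umps lies on both sides of 0.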

How the data were processed

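Each array was hybridised with Cy3-labelled cDNA amplified from sorted cells. The authors deposited Agilent Feature Extraction 10.10.1.1 output, per the labels, which gives each spot a processed intensity, background-subtracted and detrended array by array. Their series table repeats this intensity in rounded form and unscaled. The study's methods compare signals by a 2-fold criterion and name no scaling.

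Control spots and 254 outlier spots were left out, leaving 55680 probes. Accessions were matched without versions to RefSeq (GRCm38.p6), used for names and for the start regions; the array design names an older build. The probe with the highest mean log2 signal stood for a gene. Of the genes, 12615 passed the scanner's background flag in both genotypes. For 1521 that passed it in a single one the ratio is a bound, in which the dim side takes either its own signal or the lowest flagged signal of that array, whichever is higher. A further 100 that passed it in a single one gave no ratio, since the bound was under 1-fold, and 6424 passed it in neither. The flag was set for 57.3% of WT and 61.1% of ESAM-KO spots, and 0 spots were saturated. The number of arrays limits the precision.

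The members and the gene lists were chosen with earlier results of these data known. The genes named are the members, Esam, and of each further pathway or cell cycle list every gene past 2-fold, or else its highest and lowest. Marker lists are given by counts and medians. Cad, Uhrf1, Mbd4, Dpys, Upb1, the sort markers and single genes of the marker lists were named beyond that rule, after their values were seen. Alternatives were other scalings, quantile normalization, normexp (offset 50), the authors' rounded table, outlier spots kept, other filters and probe rules, and thresholds of 1.5-fold and 3-fold. Python 3.11.15, pandas 2.3.3, numpy 2.4.6, R 4.3.3 and limma 3.58.1 were used, and the counting was tested on simulated data.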

Additional observations from a re-analysis of the deposited data

How the results depend on the processing

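No paired analysis was possible because WT and ESAM-KO have 1 array each, and for the same reason no replicate could be left out. The count of members past 2-fold, 1 as reported and in the higher direction, was 2 without scaling, 0 with normexp and quantile normalization, 2 at a threshold of 1.5-fold and 0 at 3-fold, and the same counts held for members higher in ESAM-KO. No member was lower by over 2-fold under any of these. The 2179 genes past 2-fold became 722 with normexp, 4108 without the filter on dim probes, 4694 at 1.5-fold and 821 at 3-fold. They were 988 higher and 1191 lower as reported, 1804 and 729 without scaling, and 751 and 1513 with median scaling. The members' median moved from 0.22 to 0.54 without scaling. Leaving the arrays unscaled moved the median of all genes by 0.31, median scaling by -0.13 and no filter on dim probes by -0.14. Of 89 values of single members, 77 moved by less than the scanner error and 12 by more. Many of the 77 could not move, since the outlier, filter and probe rules leave a member with 1 probe above background unchanged. Those that moved by more count the other probe of Umps both on its own and as its probe with the lowest signal. Of 187 medians of the 17 further lists, 164 moved by less than the median scanner error of the list's genes and 23 by more. Without the filter Dpyd had a log2 ratio of -0.27 between signals that are no larger than their error. The normexp alternative had been planned on mean spot signals and used the median spot signals that the files hold. Each member rests on 1 spot per probe, Tyms on a WT signal near the low end, and the causes of these moves were not tested.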

Other observations

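Marker lists of further cell types also differed between the arrays. Of 7 B cell markers 6 had a ratio, 3 were lower in ESAM-KO cells by over 2-fold and the median log2 ratio was -1.35. Of 6 markers of mast cells, basophils and eosinophils 3 had a ratio, with a median of -3.76 that was -0.30 with dim probes kept. Prg2 and Epx, granule proteins of eosinophils, were lower at -3.76 and -4.24, whereas Ms4a2, a subunit of the IgE receptor, was at least 2.61-fold higher. The 7 megakaryocyte markers had a median of -0.24, which ran from -0.37 to 0.53 under other processing, with Vwf, the von Willebrand factor, higher at 1.28 and 2 others lower by over 2-fold. Of 6 T and NK cell markers 4 had a ratio, with a median of 0.07 (-0.20 to 0.39 under other processing) and 1 lower by over 2-fold, and of 5 endothelial markers 4 had a ratio, with a median of -0.54 (-0.95 to -0.14 under other processing), 1 higher and 1 lower by over 2-fold.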
